A study of Homo sapiens with 6 samples.

Results

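The nuclear receptors and hepatocyte transcription factors of HepG2 cells were compared between cells that carry and cells that lack FN3K, the kinase that removes sugar adducts from the lysines of glycated proteins. The genes were taken by their names from the deposited expression table: hepatocyte nuclear factors, forkhead, C/EBP, Kruppel-like, GATA, SOX and TEAD factors, the partners MLX and MLXIP, PROX1, and the nuclear receptors with their retinoid partners. This gave 47 of the 6357 assembled loci, 4926 of which carry a gene name, and 45 of them are described here. The rule reads names and no measured value, though it was written with earlier results of these data known. All 45 had a mean of at least 1 FPKM over the libraries, and 11 had a mean under 5 FPKM. The name rule also took in CEBPZ and CEBPZOS, which share a name but are no such factor and are described last. HNF4G, ONECUT1, ONECUT2, GATA4, GATA6 and NR5A2 are not listed by name, nor are VDR, RARB, RARG, RXRG, NR1I2, NR1I3, MLXIPL, TEAD1 or TEAD2, and they were not analysed here.

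A hepatocyte keeps its identity through a network of DNA-binding factors that regulate each other and the same liver genes, with HNF4A, the FOXA pioneer factors and C/EBP proteins at its centre. Nuclear receptors sit on top of this network and switch genes when a ligand such as a fatty acid, an oxysterol, a bile acid, a retinoid or a steroid hormone binds, many of them as partners of RXR. The mRNA of such a factor says how much message is present and not how active the protein is, since most receptors are set by their ligand and coregulators.

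HepG2 is a human liver tumour cell line. Poly(A) RNA was sequenced from 3 plates of WT HepG2 cells and 3 plates of HepG2 cells in which FN3K had been knocked out by CRISPR (FN3K KO), all grown without a treatment in EMEM with 10% fetal bovine serum to 70 to 80% confluency. How many knock-out clones the KO plates came from is not named in the sources used here, so the p-values measure the spread between plates, which may be technical. Expression is in FPKM, reads scaled by transcript length and by the mapped reads of the library, so levels can be set beside each other across genes. The FPKM of a library summed to between 289983 and 314164, and the table holds no read counts, so the depth behind a value is unknown. FN3K itself (chr17:82735575-82751197, GRCh38) had 27.7, 21.9 and 23.2 FPKM in the WT libraries and 0.782, 1.03 and 0.704 in the KO libraries, a log2 fold change of -3.78 (SE 0.13, limma with Benjamini-Hochberg adjustment, p = 1.1e-07; exact two-sided permutation p = 0.10, the smallest that 3 against 3 libraries allow). Of the hepatocyte markers, 9 of 10 are listed by name, with summed levels of 12080 to 12220 FPKM in WT and 18610 to 19660 in FN3K KO libraries. Of these 9, 5 rose and 0 fell, beside 21.2% and 36.5% of all loci. AFP alone averaged 1537 FPKM in WT and 6206 in FN3K KO libraries, so the sum does not show a rise shared by all. TF, AHSG, AMBP and SERPINA1 did not pass, and ALB is the marker not listed. Of the cholangiocyte markers, 3 of 7 are listed, with sums of 223.7 to 241.2 FPKM in WT and 182.7 to 197.3 in FN3K KO libraries, and they moved apart. KRT19, a keratin of bile duct cells, rose by 1.81 on the log2 scale (SE 0.07, limma adjusted p = 1.8e-07), while the adhesion protein EPCAM fell by 1.71 (SE 0.06, limma adjusted p = 7.8e-08) and osteopontin, SPP1, by 1.90 (SE 0.06, limma adjusted p = 8.8e-08). The part of these markers in the results was not tested, and no marker of fibroblasts, endothelium or blood is listed by name. In bulk RNA, fewer cells of a kind and less RNA per cell cannot be told apart.

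Differences are given as the log2 fold change of FN3K KO against WT on log2(FPKM + 1), which understates changes of low genes. A gene was said to rise or fall where limma gave an adjusted p under 0.05 over all 6357 loci, as it did for 57.7% of them. By this test 8 of the 45 genes rose, beside 21.2% of all loci, and 21 fell, beside 36.5% of all loci, while 16 did not pass. The share that rose was thus 17.8%, and the share that fell 46.7%. The median log2 fold change of the 45 genes was -0.23, beside -0.14 over all loci. Without CEBPZ and CEBPZOS, 8 rose, 20 fell and 15 did not pass. Scaling the libraries by median of ratios moved the median of all loci up by 0.12, which left 9 of these genes higher and 15 lower, beside 28.4% and 25.6% of all loci, and the falls of RARA, THRA, FOXO1, TEAD3, TEAD4 and CEBPZ no longer passed. Scaling to a common 75th percentile left 8 higher and 18 lower, beside 24.1% and 33.6% of all loci. With the library adjustment of Ballgown, the model closest to the study's own, 4 were higher (FOXA1, NR6A1, KLF6 and KLF11) and 4 lower (NR1H4, CEBPG, FOXK2 and CEBPZ), beside 9.53% and 8.2% of all loci. Relative to the median locus, 17 of the 45 lay above and 28 below.

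Past a fold limit of an unadjusted p under 0.05 with a log2 fold change beyond 1, only KLF11 was upregulated, beside 4.31% of all loci. By limma 0 were downregulated past it, beside 3.32%, with 7.63% of all loci past it in either direction. Without WT replicate 3, or without KO replicate 2, FOXN3 passed the limit on the lower side. The libraries of the groups did not overlap for 34 of the 45 genes, beside 63.4% of all loci. KO lay above WT in 8, beside 23.6% of all loci, and below in 26, beside 39.8%. The levels ran from 1.55 to 211 FPKM in WT, with a median of 14.9, and CEBPB and NR0B2 held the highest places in both groups.

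**Figure D1:**
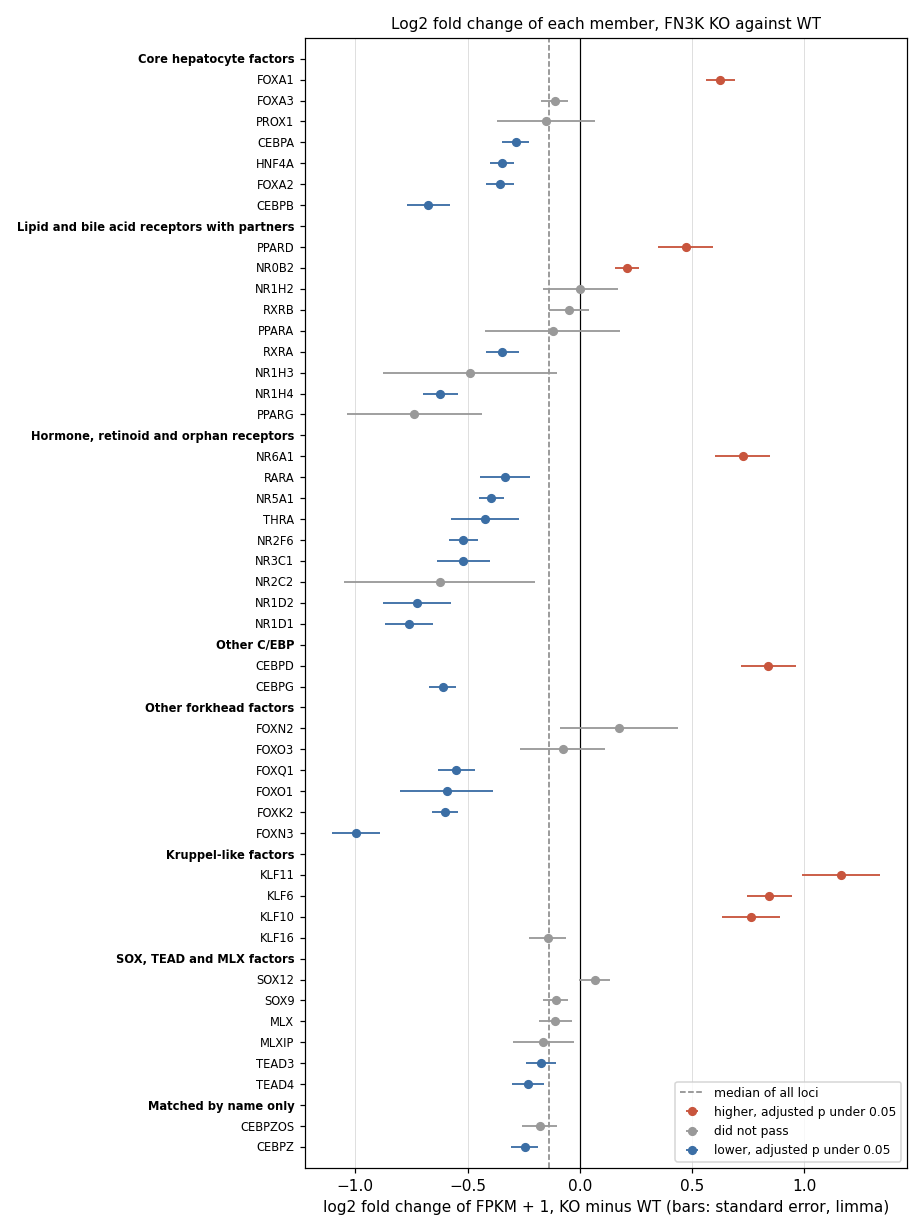
Log2 fold change of FN3K KO against WT on log2(FPKM + 1) for each of the 45 genes, grouped by family, with its standard error; colours mark genes that rose, fell or did not pass limma's adjusted p of 0.05. The range runs from -0.996 for FOXN3 to 1.16 for KLF11, and 3 of the 4 Kruppel-like factors stand on the higher side while the hormone and orphan receptors stand mostly on the lower side.

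Promoter sequence is shown for 6 of the genes that changed: the neighbours NR6A1 and NR5A1, which moved in opposite directions, the pair NR1D1 and NR1D2, which fell together, and KLF6 and FOXA1, which rose. RefSeq promoters (GRCh38.p14) were matched by symbol for 36 of the 45 genes and each covers 250 bases before and 50 after the start. The stretches below lie outside annotated exons, with position -1 being the base before the start. The start used for FOXA1 lies inside the gene span given for it below, so its stretch does as well. Capitals mark, on either strand, the GC box GGGCGG, the E-box CACGTG, the cAMP response element TGACGTCA, the forkhead site TGTTTNC and the CCAAT box CCAAT.
KLF6, chr10:3785282-3785399, minus strand, -190 to -73: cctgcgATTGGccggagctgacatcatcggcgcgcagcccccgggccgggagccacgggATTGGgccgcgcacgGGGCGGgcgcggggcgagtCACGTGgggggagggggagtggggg
FOXA1, chr14:37595370-37595489, minus strand, -240 to -121: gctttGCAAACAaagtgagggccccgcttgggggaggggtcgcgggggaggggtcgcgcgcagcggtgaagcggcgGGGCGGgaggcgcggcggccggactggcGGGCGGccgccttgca
NR6A1, chr9:124771312-124771411, minus strand, -100 to -1: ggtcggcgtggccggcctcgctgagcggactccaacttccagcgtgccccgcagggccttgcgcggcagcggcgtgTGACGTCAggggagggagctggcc
NR5A1, chr9:124507436-124507519, minus strand, -120 to -37: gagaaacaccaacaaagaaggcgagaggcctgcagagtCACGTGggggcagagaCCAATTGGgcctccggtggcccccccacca
NR1D1, chr17:40100726-40100829, minus strand, -240 to -137: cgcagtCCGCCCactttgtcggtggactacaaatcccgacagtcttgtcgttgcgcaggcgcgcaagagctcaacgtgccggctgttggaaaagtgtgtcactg
NR1D2, chr3:23945166-23945259, plus strand, -120 to -27: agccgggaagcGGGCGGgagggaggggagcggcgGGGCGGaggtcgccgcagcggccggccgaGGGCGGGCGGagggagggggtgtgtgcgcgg

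These stretches differ in what they hold. The GC box stood in 29 of the 36 promoters, beside 44.6% of all 27305 promoters of this length, and it was found for NR1D1 and NR1D2 alike, with overlapping copies for NR1D2. The E-box stood in 4 of the 36, those of KLF6, KLF11, NR5A1 and MLX, beside 7.43% of all promoters. Of these 4 genes KLF6 and KLF11 rose, NR5A1 fell and MLX did not pass. The cAMP response element stood in 2 of the 36, NR6A1 and MLXIP, beside 1.98% of all promoters. The forkhead site stood in 3 of the 36, FOXA1, KLF6 and SOX12, beside 18.1%, and the CCAAT box in 17, beside 35.7%, with copies on both strands overlapping in NR5A1. A match is a run of letters in this window and not a bound site.

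The core hepatocyte factors did not move as 1 group. Of the 7 described, FOXA1 rose, HNF4A, FOXA2, CEBPA and CEBPB fell, and FOXA3 and PROX1 did not pass. Among all loci 21.2% rose and 36.5% fell. With the library adjustment of Ballgown, FOXA1 kept its call, and HNF4A, FOXA2, CEBPA and CEBPB did not. HNF4A (chr20:44355700-44434596), the nuclear receptor on which most hepatocyte genes depend, had 45.2, 43.4 and 45.0 FPKM in WT and 35.2, 35.7 and 33.5 in FN3K KO libraries. Every KO library lay below every WT library, and the log2 fold change was -0.35 (SE 0.05, limma adjusted p = 6.6e-04). PROX1 (chr1:213983181-214041502), a homeodomain regulator of liver development, had 8.27, 5.66 and 8.32 FPKM in WT and 4.39, 8.78 and 6.97 in FN3K KO libraries, so that the groups overlapped widely.

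The FOXA factors open closed chromatin at liver enhancers and can in part stand in for each other, and their order by level changed. FOXA1 (chr14:37589984-37596059) had 19.1, 17.3 and 18.8 FPKM in WT and 28.7, 28.0 and 30.0 in FN3K KO libraries, a log2 fold change of 0.62 (SE 0.06, limma adjusted p = 6.0e-05). FOXA2 (chr20:22581005-22585455) had 25.5, 26.2 and 27.6 FPKM in WT and 19.6, 20.4 and 21.4 in FN3K KO libraries, at -0.35 (SE 0.06, limma adjusted p = 0.00138). FOXA3 (chr19:45863989-45873797) had 26.1, 26.7 and 27.1 FPKM in WT and 24.0, 25.9 and 23.8 in FN3K KO libraries, at -0.11 (SE 0.06, limma adjusted p = 0.131), a sign that turned with the median-of-ratios scaling. In each WT library FOXA1 was the lowest of these 3 genes, and in each KO library it was the highest. FOXA2 and FOXA3 lay within each other's spread in WT, and in FN3K KO every FOXA2 value lay below every FOXA3 value.

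FOXA1 did not rise alone on its chromosome. Among all loci 21.2% rose and 36.5% fell, with a median of -0.14. Within 2 Mb of FOXA1 the table lists 7 other named loci, of which 6 rose and 0 fell, and their median was 0.59. Within 5 Mb there were 17, of which 13 rose and 0 fell (median 0.50), and within 10 Mb 23, of which 18 rose and 0 fell (median 0.58). The nearest listed neighbours were MBIP, at 0.61 (SE 0.09, limma adjusted p = 6.6e-04) and 1.28 Mb away, and GEMIN2, at 0.67 (SE 0.18, limma adjusted p = 0.012) and 1.52 Mb away. Farther toward the start of the chromosome, 41 loci are listed between 13.3 and 17.1 Mb from FOXA1, of which 31 rose and 2 fell (median 0.53). On the other side, of 17 loci between 10 and 20 Mb away, 4 rose and 7 fell (median -0.13). The part of this stretch of chromosome 14 in the change of FOXA1 was not tested.

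**Figure D2:**
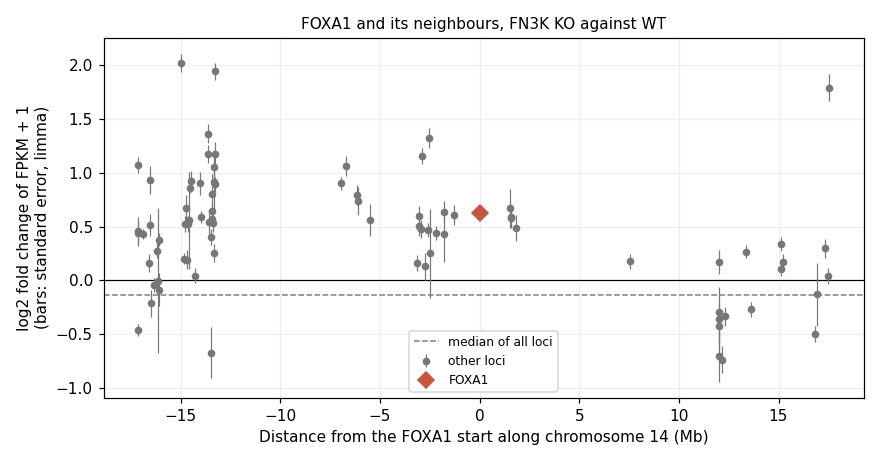
Log2 fold change of FN3K KO against WT for named loci of chromosome 14 against their distance from FOXA1 in Mb, with standard errors, FOXA1 as a diamond and the median of all loci as a dashed line. Of the 23 other loci within 10 Mb of FOXA1, 18 rose and 0 fell, beside 21.2% and 36.5% of all loci. The points at the far left lie mostly above 0 as well (31 of 41 rose), and beyond 10 Mb to the right they lie on both sides of 0.

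The C/EBP proteins are leucine zipper factors that pair with each other and drive the liver's metabolic and acute phase genes. CEBPB (chr20:50190734-50192689), the member most tied to inflammation and stress, had the highest level of all 45 genes, with 198.7, 205.5 and 227.9 FPKM in WT and 114.0, 148.2 and 133.9 in FN3K KO libraries. It fell by 0.68 on the log2 scale (SE 0.10, limma adjusted p = 4.2e-04). CEBPA (chr19:33299934-33302564), which holds hepatocytes out of the cell cycle, had 78.2, 82.1 and 84.6 FPKM in WT and 63.6, 71.5 and 65.5 in FN3K KO libraries, at -0.29 (SE 0.06, limma adjusted p = 0.00384). CEBPG (chr19:33373330-33382686), a short partner without a classical activation domain that also pairs with ATF4, had 24.1, 25.8 and 25.9 FPKM in WT and 16.1, 16.1 and 16.5 in FN3K KO libraries, at -0.61 (SE 0.06, limma adjusted p = 5.0e-05). These 3 factors were lower in each KO library than in each WT library. CEBPD (chr8:47736909-47739086), an early responder to cytokines and glucocorticoids, went the other way, with 14.9, 13.2 and 15.1 FPKM in WT and 21.6, 31.3 and 27.7 in FN3K KO libraries. Its log2 fold change was 0.84 (SE 0.12, limma adjusted p = 4.9e-04), and in FN3K KO cells its level passed that of CEBPG in every library while in WT cells it was below it in every library.

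**Figure D3:**
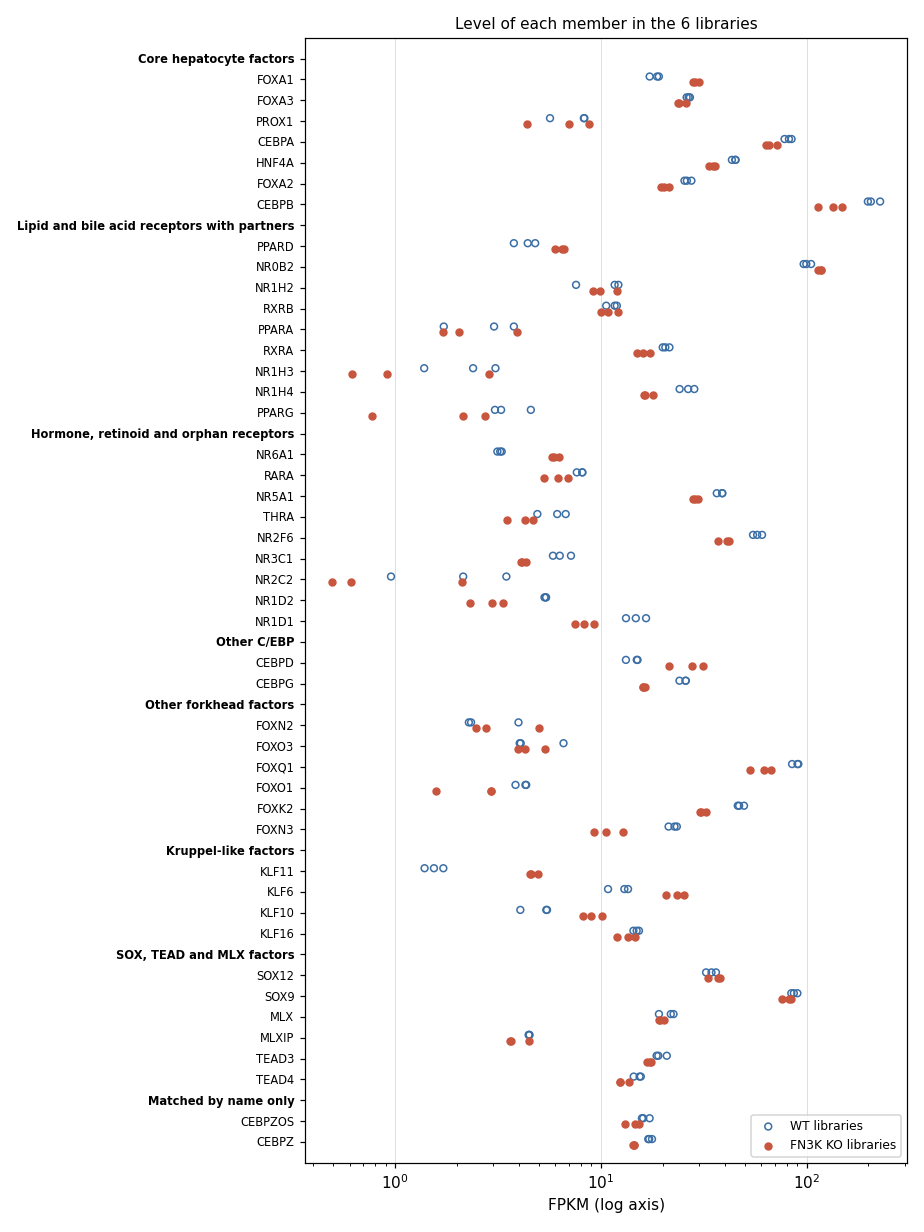
FPKM of the genes in each WT and FN3K KO library on a log axis, 1 point per library, open for WT and filled for FN3K KO, grouped by family. CEBPB and NR0B2 lie at the top in both groups, and FOXA1, CEBPD, KLF6, KLF10 and KLF11 show the KO libraries above the WT libraries.

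Among the receptors for lipids and bile acids with their partners, 9 are listed, of which PPARD and NR0B2 rose, RXRA and NR1H4 fell, and 5 did not pass. The shares were 22.2% higher and 22.2% lower, beside 21.2% and 36.5% of all loci. The PPARs bind fatty acids and act as dimers with RXR. PPARD (chr6:35342558-35428191), the form found in most tissues, had 3.78, 4.79 and 4.41 FPKM in WT and 6.63, 6.01 and 6.45 in FN3K KO libraries, at 0.47 (SE 0.12, limma adjusted p = 0.00992). PPARA (chr22:46150521-46243756), the main PPAR of liver and the driver of fatty acid oxidation, had 1.72, 3.78 and 3.03 FPKM in WT and 3.92, 2.04 and 1.72 in FN3K KO libraries. Those ranges overlapped almost fully, at -0.12 (SE 0.30, limma adjusted p = 0.742), and the sign turned without WT replicate 2 or KO replicate 3. PPARG (chr3:12287368-12434356), the PPAR of fat storage, had 3.06, 4.57 and 3.27 FPKM in WT and 2.14, 2.74 and 0.774 in FN3K KO libraries, at -0.74 (SE 0.30, limma adjusted p = 0.0619). Its groups did not overlap. Without KO replicate 2 the value was -0.96 (limma adjusted p = 0.0339), and without KO replicate 3, which had the lowest PPARG level, it was -0.42 (limma adjusted p = 0.15).

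In the FXR pathway the receptor fell and the repressor it induces rose. NR1H4 (FXR, chr12:100473708-100564413), the bile acid receptor, had 24.1, 26.6 and 28.5 FPKM in WT and 16.3, 17.9 and 16.1 in FN3K KO libraries, at -0.62 (SE 0.08, limma adjusted p = 1.9e-04). NR0B2 (SHP, chr1:26911489-26913966), the repressor that FXR induces and that has no DNA-binding domain, had 96.8, 99.7 and 105.2 FPKM in WT and 118.1, 117.2 and 113.4 in FN3K KO libraries. Its rise was small, at 0.21 (SE 0.05, limma adjusted p = 0.00908), with no overlap of the groups. NR0B2 lies wholly within NUDC on the other strand, and NUDC averaged 90.5 FPKM in the WT and 86.5 in the KO libraries (limma adjusted p = 0.453).

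Of the oxysterol receptors and the RXRs, RXRA passed the test. NR1H3 (LXR alpha, chr11:47248300-47269032) had 1.38, 3.07 and 2.39 FPKM in WT and 0.914, 2.86 and 0.614 in FN3K KO libraries, overlapping at -0.49 (SE 0.39, limma adjusted p = 0.305). NR1H2 (LXR beta, chr19:50329653-50382982) had 11.7, 12.2 and 7.58 FPKM in WT and 9.12, 12.02 and 9.91 in FN3K KO libraries, with a difference near 0 that took either sign when a library was left out. RXRA (chr9:134317098-134440585), the common partner of the receptors above, had 21.5, 19.99 and 20.6 FPKM in WT and 16.02, 17.4 and 15.0 in FN3K KO libraries. It fell by 0.34 on the log2 scale (SE 0.07, limma adjusted p = 0.00357). RXRB (chr6:33193588-33200688) had 10.6, 11.96 and 11.7 FPKM in WT and 12.1, 10.9 and 10.1 in FN3K KO libraries, which overlapped, at -0.05 (SE 0.09, limma adjusted p = 0.646).

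Of the 9 hormone, retinoid and orphan receptors, 7 fell, only NR6A1 rose, and NR2C2 (TR4), with under 4 FPKM in every library, did not pass. Over all loci 36.5% fell and 21.2% rose. The heme receptors NR1D1 and NR1D2 (REV-ERB alpha and beta), repressors within the circadian clock that also damp lipid and glucose genes, fell the most of these. NR1D1 (chr17:40092787-40100725) had 14.8, 13.2 and 16.6 FPKM in WT and 7.49, 8.30 and 9.31 in FN3K KO libraries, at -0.76 (SE 0.11, limma adjusted p = 3.7e-04). NR1D2 (chr3:23945260-23980618) had 5.42, 5.39 and 5.32 FPKM in WT and 2.97, 3.36 and 2.31 in FN3K KO libraries, at -0.73 (SE 0.15, limma adjusted p = 0.00354). Both lay lower in each KO library than in any WT library. THRA, the thyroid hormone receptor alpha, overlaps the end of NR1D1 by 1081 bases on the other strand, and since the sources do not state that strand was kept, reads from the overlap cannot be assigned. THRA was at -0.42 (SE 0.15, limma adjusted p = 0.0385), a call lost without WT replicate 1, WT replicate 3, KO replicate 1 or KO replicate 3, where the adjusted p reached 0.118.

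NR6A1 and NR5A1 are next to each other on chromosome 9 and went opposite ways. NR6A1 (GCNF, chr9:124517275-124771310), an orphan repressor known from germ cells and embryonic stem cells, had 3.24, 3.30 and 3.14 FPKM in WT and 6.28, 5.92 and 5.76 in FN3K KO libraries, at 0.72 (SE 0.12, limma adjusted p = 0.0011). The antisense gene MIR181A2HG overlaps NR6A1 by 40165 bases on the other strand. Strand is not stated, so reads from that overlap cannot be assigned. NR5A1 (SF-1, chr9:124481236-124507430), the master regulator of steroid hormone synthesis in adrenal and gonad, had 38.9, 36.6 and 39.0 FPKM in WT and 28.7, 29.6 and 28.0 in FN3K KO libraries. It fell by 0.40 on the log2 scale (SE 0.06, limma adjusted p = 4.0e-04).

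The other receptors of this group also fell. NR3C1, the glucocorticoid receptor (chr5:143277931-143435512), had 5.85, 7.16 and 6.31 FPKM in WT and 4.11, 4.31 and 4.10 in FN3K KO libraries, at -0.52 (SE 0.12, limma adjusted p = 0.00531). NR2F6, an orphan of the COUP-TF family (chr19:17231883-17245940), had 54.9, 57.5 and 60.8 FPKM in WT and 36.98, 41.9 and 41.1 in FN3K KO libraries, at -0.52 (SE 0.07, limma adjusted p = 2.2e-04). A second annotated gene on the same strand overlaps NR2F6 over 10001 bases. RARA (chr17:40309192-40357643), the retinoic acid receptor alpha, had 8.14, 8.12 and 7.64 FPKM in WT and 6.21, 5.29 and 6.92 in FN3K KO libraries, at -0.34 (SE 0.11, limma adjusted p = 0.0282). The RARA call held in the fit without KO replicate 3 (limma adjusted p = 0.0204) and was lost without any other library, with values from -0.41 to -0.25. Together with HNF4A and the lipid and bile acid receptors, 19 nuclear receptors are listed, of which 3 rose, 10 fell and 6 did not pass. These shares were 15.8% higher and 52.6% lower, beside 21.2% and 36.5% of all loci. The median difference of the 19 was -0.40 on the log2 scale, beside -0.14 over all loci. With the library adjustment of Ballgown, NR1H4 alone of the 10 kept its call.

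The 4 Kruppel-like factors listed are zinc finger proteins that bind GC-rich promoters, and 3 of them rose, beside 21.2% of all loci. KLF11 (chr2:10042849-10054836), a TGF-beta inducible repressor linked to diabetes, had 1.39, 1.71 and 1.54 FPKM in WT and 4.98, 4.53 and 4.59 in FN3K KO libraries. This was the largest rise among the 45 genes, at 1.16 (SE 0.17, limma adjusted p = 5.8e-04), from the lowest WT level. KLF6 (chr10:3775996-3785281), an early response gene of injured liver, had 10.8, 13.6 and 13.0 FPKM in WT and 20.8, 25.3 and 23.4 in FN3K KO libraries, at 0.84 (SE 0.10, limma adjusted p = 1.5e-04). KLF10 (chr8:102648779-102655902), the close relative of KLF11 and also induced by TGF-beta, had 4.06, 5.47 and 5.43 FPKM in WT and 10.2, 8.22 and 8.98 in FN3K KO libraries, at 0.76 (SE 0.13, limma adjusted p = 0.00121). All KO libraries lay above all WT libraries for these 3 genes. KLF16 was at -0.14 (SE 0.08, limma adjusted p = 0.17), with overlapping groups.

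Of the 6 other forkhead factors, 4 fell, beside 36.5% of all loci, and FOXO3 and FOXN2 did not pass. FOXN3 (chr14:89124871-89619149), a repressor linked to hepatic glucose use, had 23.4, 22.8 and 21.3 FPKM in WT and 9.27, 12.8 and 10.6 in FN3K KO libraries, the largest fall of the 45 genes, at -0.996 (SE 0.11, limma adjusted p = 7.4e-05). FOXK2, which with FOXK1 promotes glycolysis and represses autophagy genes, had 46.3, 47.0 and 49.7 FPKM in WT and 30.7, 32.4 and 30.2 in FN3K KO libraries, at -0.60 (SE 0.06, limma adjusted p = 3.6e-05). FOXO1 (chr13:40469953-40666597), the insulin-restrained driver of gluconeogenesis, had 3.85, 4.30 and 4.34 FPKM in WT and 2.91, 2.94 and 1.58 in FN3K KO libraries. Its log2 fold change was -0.59 (SE 0.21, limma adjusted p = 0.0349), and the call was lost without any 1 of the WT libraries or KO replicate 3, where the adjusted p reached 0.0919. FOXQ1 (chr6:1312440-1314748), a factor tied to epithelial plasticity, had 85.1, 90.4 and 91.2 FPKM in WT and 53.1, 67.0 and 61.9 in FN3K KO libraries, at -0.55 (SE 0.08, limma adjusted p = 5.8e-04). In WT its range overlapped that of SOX9, and in FN3K KO every library had less FOXQ1 than SOX9.

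Of the 6 SOX, TEAD and MLX factors, TEAD3 and TEAD4 fell and 4 did not pass, with log2 fold changes from -0.23 to 0.07. The share that fell was 33.3%, beside 36.5% of all loci, and the median was -0.14, as over all loci. SOX9, a factor of bile duct and progenitor cells, averaged 87.1 FPKM in the WT and 80.8 in the KO libraries, at -0.11 (SE 0.06, limma adjusted p = 0.132), and SOX12 was at 0.06 (SE 0.07, limma adjusted p = 0.447). MLX and MLXIP, which with the carbohydrate sensor ChREBP form a dimer family that binds E-boxes, were at -0.11 (SE 0.07) and -0.16 (SE 0.14), with limma adjusted p of 0.236 and 0.325. MLX had 21.9, 19.2 and 22.6 FPKM in WT and 20.2, 19.3 and 19.1 in FN3K KO libraries, and MLXIP 4.46, 4.50 and 4.48 in WT and 3.65, 4.45 and 3.62 in FN3K KO libraries. The TEAD factors carry the output of the Hippo pathway. TEAD4 (chr12:2959330-3040673) had 15.4, 14.4 and 15.6 FPKM in WT and 12.4, 13.7 and 12.3 in FN3K KO libraries, at -0.23 (SE 0.07, limma adjusted p = 0.0234), a call lost without WT replicate 1 or 3 or KO replicate 1 or 3, where the adjusted p reached 0.0801. TEAD3 (chr6:35473597-35497076) had 19.0, 18.7 and 20.9 FPKM in WT and 16.7, 17.5 and 17.4 in FN3K KO libraries. At -0.18 (SE 0.07) it lay at the threshold, and its call was lost whichever library was left out, with limma adjusted p from 0.0551 to 0.159.

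The genes matched by name alone differ from these factors in what they make. CEBPZ, a nucleolar protein, fell by 0.25 on the log2 scale (SE 0.06, limma adjusted p = 0.00806), and CEBPZOS, a mitochondrial protein encoded on its other strand over 14582 shared bases, was at -0.18 (SE 0.08, limma adjusted p = 0.0759). With the median-of-ratios scaling CEBPZ was at -0.12 and did not pass (limma adjusted p = 0.129).

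Nuclear receptors act through coregulators, and the listed ones moved mostly down. Of 7 coactivators listed, 6 fell and 0 rose, with their median at -0.39, and of 6 corepressors 4 fell and 0 rose, with theirs at -0.36, beside -0.14 over all loci. Of all loci, 36.5% fell and 21.2% rose. PPARGC1A, the coactivator of HNF4A, PPARA and the glucocorticoid receptor in fasting liver, fell by 1.33 on the log2 scale (SE 0.12, limma adjusted p = 2.5e-05), the most among the coactivators. The acetyltransferase CREBBP was at -0.65 (SE 0.11, limma adjusted p = 8.9e-04), the arginine methyltransferase PRMT1 at -0.62 (SE 0.06, limma adjusted p = 4.7e-05) and NCOA5 at -0.39 (SE 0.08, limma adjusted p = 0.0041). Among the corepressors TBL1X, a subunit of the NCoR complex, was at -0.67 (SE 0.20, limma adjusted p = 0.0204) and NRIP1 at -0.39 (SE 0.12, limma adjusted p = 0.0227). SIN3B also passed as lower, and it is listed at 0 in 2 of the KO libraries.

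Genes known as targets of these factors were set beside the mRNA of the factor itself. The counts stand beside 21.2% of all loci that rose and 36.5% that fell. Of 15 listed genes of the HNF4A network, 11 rose, 1 fell and 3 did not pass, their median log2 fold change being 0.43, while HNF4A fell. TTR, APOB, TF, FGB, AMBP, APOA1 and SERPINA1 of this list are also among the hepatocyte markers above, so the counts share genes. TTR, the thyroxine carrier, was at 2.90 (SE 0.08, limma adjusted p = 2.4e-08), APOA4 at 2.54 (SE 0.14, limma adjusted p = 1.7e-06) and APOA1, the main protein of HDL, at 1.14 (SE 0.11, limma adjusted p = 4.4e-05). Of 13 listed targets of PPAR alpha, 12 rose and 0 fell, with a median of 0.91, while PPARA did not pass. FABP1 was at 2.73 (SE 0.11, limma adjusted p = 3.6e-07) and CIDEC, a lipid droplet protein, at 2.62 (SE 0.12, limma adjusted p = 4.8e-07). TXNIP is in both this list and that of ChREBP, of whose 9 listed targets 8 rose and 0 fell, with a median of 1.46.

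The lists of the other receptors were shorter and split. Of 5 FXR targets listed, 4 rose and 1 fell, with a median of 0.39, and they include NR0B2 itself and KNG1, the kininogen gene, at 2.26 (SE 0.11, limma adjusted p = 1.0e-06), beside ABCB4, the bile phospholipid transporter, at -0.81 (SE 0.29, limma adjusted p = 0.0372). Of 5 LXR targets 4 rose and 1 fell (median 0.39), with the phospholipid transfer protein PLTP at 1.21 (SE 0.09, limma adjusted p = 8.3e-06) and the sterol exporter ABCG8 at -0.66 (SE 0.14, limma adjusted p = 0.00419). Of 4 targets of PXR and CAR, 2 rose and 2 fell (median 0.24). Of 3 targets of VDR and RAR, 2 rose and 1 fell (median 0.89). CYP24A1, the enzyme that breaks down active vitamin D, was at 2.94 (SE 0.19, limma adjusted p = 4.3e-06) and the transglutaminase TGM2 at 0.89 (SE 0.11, limma adjusted p = 1.7e-04), while the retinal reductase DHRS3 was at -0.54 (SE 0.06, limma adjusted p = 1.4e-04).

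The targets of C/EBP and TEAD factors moved in both directions. Of 5 C/EBP targets listed, 2 rose, 2 fell and 1 did not pass. Their median of -1.04 is the value of TAT, the gene that did not pass (SE 0.54, limma adjusted p = 0.125). TAT had 1.11, 1.41 and 3.75 FPKM in WT and 0, 1.76 and 0 in FN3K KO libraries, so the median describes no shared fall. IGFBP1, a secreted binder of insulin-like growth factors, fell by 2.20 on the log2 scale (SE 0.14, limma adjusted p = 4.8e-06), and DDIT3, the stress factor CHOP that pairs with C/EBP proteins, fell by 1.12 (SE 0.16, limma adjusted p = 4.2e-04). SAA4, an apolipoprotein of HDL, rose by 1.79 (SE 0.07, limma adjusted p = 3.0e-07). Of 7 TEAD targets 3 rose, 3 fell and 1 did not pass (median -0.12). NT5E was at 1.62 (SE 0.08, limma adjusted p = 1.1e-06), ANKRD1 at 1.29 (SE 0.19, limma adjusted p = 5.2e-04) and CTGF at -1.11 (SE 0.11, limma adjusted p = 4.8e-05). The lists overlap in part and hold genes that several factors share, so their counts are descriptions.

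**Figure D4:**
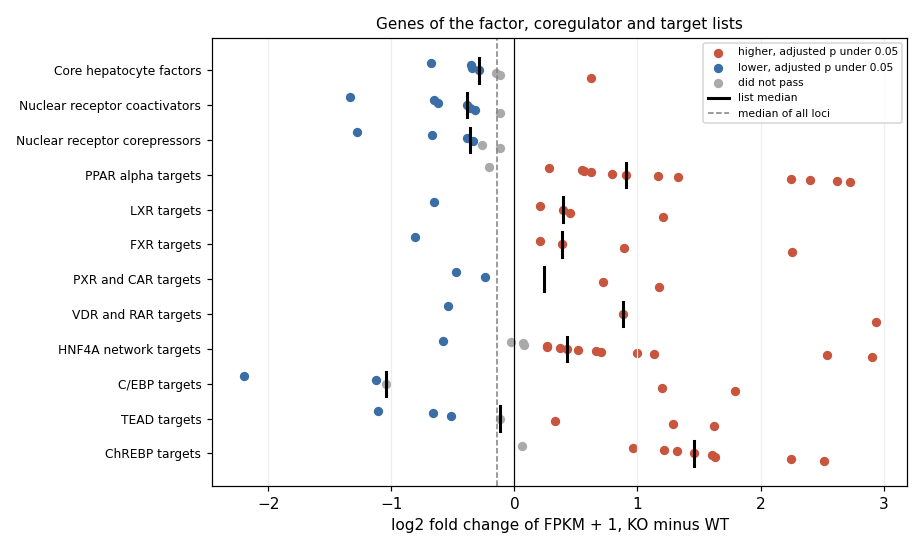
Log2 fold change of FN3K KO against WT for the listed genes of the core factors and of each coregulator and target list, 1 point per gene, with the median of the list and a line at the median of all loci, -0.14. The lists of PPAR alpha, ChREBP and HNF4A network targets have medians of 0.91, 1.46 and 0.43, while those of coactivators and corepressors lie at -0.39 and -0.36.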

How the data were processed

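Poly(A) RNA of 3 WT and 3 FN3K KO plates of HepG2 cells was analysed, grouped by the labelled genotype. The authors mapped reads with HISAT2 to GRCh38.p5, assembled and quantified transcripts with StringTie 2.0.6 and deposited gene FPKM through Ballgown, per the labels and methods; the deposited FPKM carry no counts, so depth and counting error are unknown. Filters the authors used on loci are not given in the sources used here.

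The fit, in limma 3.58.1 under R 4.3.3 (eBayes with a trend), covered all 6357 loci on log2(FPKM + 1), and p-values were adjusted by Benjamini-Hochberg over all loci. Tables and figures were made with Python 3.11.15 and pandas 2.3.3. Scripts were tested on simulated data. Genes were placed by transcript ID in GENCODE 29 (GRCh38), which matched 44 of the 45 genes. FOXK2 was the exception and has no coordinates here. Per-library values were given for the 10 highest and 10 lowest changed genes, the core factors and the receptors with a target list. Most genes named per list were among its 4 of largest change, though not all 4 were always named. Other forkhead, receptor and listed genes named were chosen after their values were seen. The genes and the 17 lists were chosen with earlier results of these data known, and lists are described without a set test. The fold limit was chosen here, and it differs from those the study's text gives, which also differ from each other. Alternatives were another pseudocount, a filter at 1 FPKM, scaling to the 75th percentile or by median of ratios, no trend, a linear model with Ballgown's library adjustment, a replicate block and leaving out each library.

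At least 1 other annotated gene overlaps 33 of the 45 genes. Strand is not stated, so overlapping reads cannot be assigned. Of the 47 matched loci 2 are not reported here, and counts leave them out.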

Additional observations from a re-analysis of the deposited data

How the results depend on the processing

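With the library adjustment of Ballgown, 4 genes were higher and 4 lower, beside 9.53% and 8.2% of all loci, and past the fold limit 2 were higher and 0 lower. FOXA1, NR6A1, KLF6, KLF11, NR1H4, CEBPG, FOXK2 and CEBPZ kept their calls there. A pseudocount of 0.1 gave 2 lower past the fold limit, and leaving out 1 library gave 0 to 1 (without WT replicate 3 or KO replicate 2). Leaving out 1 library gave 8 genes higher each time and 16 to 20 lower, and scaling to the 75th percentile gave 8 and 18. FN3K kept its call and direction in each alternative, from -4.71 to -3.68. The cause of these differences was not tested.

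All reversals were of genes that did not pass. Scaling by median of ratios turned FOXA3 to 0.015, RXRB to 0.072, FOXO3 to 0.032, SOX9 to 0.024 and MLX to 0.018, and raised SOX12 past the threshold at 0.19. The library adjustment turned PROX1 to 0.061, NR1H2 to -0.15, RXRB to 0.014, PPARA to 0.12, NR1H3 to 0.35 and FOXO3 to 0.14. With 1 library left out the ranges spanned 0: PROX1 -0.34 to 0.086, NR1H2 -0.20 to 0.12, RXRB -0.11 to 0.007, PPARA -0.38 to 0.054, FOXN2 -0.067 to 0.37 and FOXO3 -0.18 to 0.12.

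The replicate block gave 8 genes higher and 20 lower, with THRA and TEAD3 lost and PPARG past the threshold (limma adjusted p = 0.0356). Plates of the same number did not deviate together (correlations of 0.010, 0.006 and 0.046), so the numbers were not taken as pairs. Depth limits cannot be given for FPKM.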

Other observations

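Transcription factors outside the names above were looked at in lists written after values of these data had been seen, so their counts are descriptions, beside 21.2% of all loci that rose and 36.5% that fell. Of 9 listed AP-1 and immediate early genes, 7 rose and 0 fell, with a median log2 fold change of 0.44. JUN, the main AP-1 subunit, had 14.9, 18.0 and 17.3 FPKM in WT and 32.4, 38.7 and 39.8 in FN3K KO libraries, at 1.10 (SE 0.10, limma adjusted p = 2.5e-05), and its partner FOS had 2.24, 1.93 and 2.38 in WT and 6.24, 5.55 and 5.61 in FN3K KO libraries, at 1.10 (SE 0.15, limma adjusted p = 3.2e-04). IER2 and FOSL1 did not pass.

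Of the clock factors beside NR1D1 and NR1D2, 3 of 18 are listed. BHLHE40, a repressor that competes at E-boxes, rose by 1.61 (SE 0.14, limma adjusted p = 2.4e-05), from 1.60, 1.84 and 2.14 FPKM in WT to 7.83, 7.64 and 7.72 in FN3K KO libraries. NFIL3, the bZIP repressor that REV-ERB proteins silence, fell by 0.74 (SE 0.06, limma adjusted p = 1.3e-05), from 41.4, 43.9 and 44.0 to 24.5, 26.6 and 24.9 FPKM, and CRY1 fell by 0.49 (SE 0.17, limma adjusted p = 0.0328). Of 10 listed bZIP partners of the C/EBP proteins and stress factors, 2 rose and 3 fell. ATF4, with which CEBPG pairs, fell by 0.46 (SE 0.06, limma adjusted p = 1.9e-04), from 304.7, 314.1 and 317.5 to 237.6, 220.4 and 223.9 FPKM.

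Of 10 listed SMAD and TGF-beta genes 3 rose and 4 fell, while KLF10 and KLF11, which TGF-beta can induce, both rose. The receptor TGFBR1 fell by 0.69 (SE 0.17, limma adjusted p = 0.00737) and the ligand TGFB1 by 0.41 (SE 0.07, limma adjusted p = 9.3e-04). Of 9 sterol regulators 4 rose and 4 fell, SREBF2 among the former, at 0.85 (SE 0.06, limma adjusted p = 5.5e-06), and SCAP among the latter, at -0.39 (SE 0.06, limma adjusted p = 5.3e-04).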
